A study of Mus musculus with 13 samples.

Results

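Cyp3a11, Cyp3a13 and Cyp3a25 are mouse cytochrome P450 enzymes of the Cyp3a subfamily. They were chosen by gene symbol, with their values in these libraries known, as 3 of the 27141 genes of the count and FPKM tables and 3 of the 10 Cyp3a genes listed there. Their levels and the differences between groups are therefore given as a description, with intervals and without p-values. Where a member is said to be called, it passed the thresholds applied to all genes, and nothing is read from that count since the members were chosen on these differences.

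Cyp3a enzymes are heme proteins of the endoplasmic reticulum that oxidise steroids, bile acids and a wide range of drugs, and they are counted among the markers of mature hepatocyte function. Electrons reach them from NADPH through P450 oxidoreductase (Por), with cytochrome b5 as an additional donor. Transcription of Cyp3a11, the main drug-inducible form in mouse liver, is driven by the nuclear receptor PXR (Nr1i2) with its partner RXR, and CAR (Nr1i3) and liver-enriched factors such as Hnf4a, Foxa and C/EBP proteins act on the same genes.

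The libraries were made from damaged hepatocytes (dHeps), taken by collagenase perfusion from livers of WT mice (C57BL/6 background) that had been injured with CCl4, a hepatotoxin. The cells were seeded on rat tail collagen and kept for 16 days in serum-free Hepatocyte Maintenance Medium. Mice of both sexes were used in the study, and its methods give an age for the reporter mice of the lineage tracing but not separately for the WT mice behind these libraries. All 7 groups share this injury, medium and time. The DMSO group received the solvent, and the 5C group received a cocktail that joins forskolin (F), which activates adenylate cyclase, ETC-1002 (E), which activates AMPK, CID755673 (C), which inhibits protein kinase D, GSK429286A (G), which inhibits ROCK, and Salidroside (S), a plant glycoside. The groups 5C-G, 5C-C, 5C-E, 5C-F and 5C-S each lacked the compound named by the letter. There were 2 libraries (A and B) for every group except 5C-S, which had 1, and the letters follow the numbers of the deposited columns, which the labels tie to no animal or batch. The study's methods define replicates as biological ones, but neither they nor the labels say whether the libraries of a group came from separate animals or from separate cultures of the same cells, and every interval and p-value measures the spread between these libraries.

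Total counts ran from 30195867 to 45491932 a library. In a bulk culture, fewer hepatocytes and less RNA per hepatocyte cannot be told apart. All 8 hepatocyte markers examined, among them Alb, Ttr, Apoa1, Tat and Hnf4a, were found in every group. Their summed level was 11135 to 12354 FPKM in DMSO, 11109 to 11177 in 5C, 17562 to 21997 in 5C-F, 7036 to 8367 in 5C-G, 4711 to 5087 in 5C-C, 3168 to 3679 in 5C-E and 7288 in 5C-S. Transcripts of other liver cells were present as well, and the values of those lists are given beside the results.

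All members lie on chromosome 5 (GRCm39, GENCODE M39) and have 13 exons. Cyp3a13 (ENSMUSG00000029727, chr5:137891193-137919882, minus strand) stands alone. Cyp3a11 (ENSMUSG00000056035, chr5:145791236-145816867, minus strand) and Cyp3a25 (ENSMUSG00000029630, chr5:145913516-145946432, minus strand) lie in the cluster that holds the other Cyp3a genes, with Cyp3a59 (chr5:146016067-146050097, plus strand) next to Cyp3a25. The coding sequences of the members were 76.4% (Cyp3a11 and Cyp3a13), 75.9% (Cyp3a11 and Cyp3a25) and 76.5% (Cyp3a13 and Cyp3a25) identical. Cyp3a25 and Cyp3a59 were 97.5% identical, and Cyp3a11 was 95.2% identical to Cyp3a41a. Reads can therefore be shared within the cluster. Of the 50-base windows of the canonical transcript, 14.2% of Cyp3a11, 26.7% of Cyp3a25 and 0% of Cyp3a13 occurred exactly in another Cyp3a gene, and of the 150-base windows 0%, 0.699% and 0%. The part of Cyp3a25 that was shared lay mostly with Cyp3a59 (24.9% of the 50-base windows), so that the split of reads between this pair is uncertain.

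The sequences before the gene starts are shown because Cyp3a11 and Cyp3a25 varied together over the libraries and Cyp3a13 did not follow them. They are RefSeq promoters (GRCm38.p6), placed in GRCm39 by exact match, cut to the bases that precede both the RefSeq and the GENCODE start. Capitals mark the nuclear receptor hexamers AGGTCA and AGTTCA and the CEBP motif TTGCNNAA, on either strand.
Cyp3a25 (chr5:145946433-145946678, minus strand): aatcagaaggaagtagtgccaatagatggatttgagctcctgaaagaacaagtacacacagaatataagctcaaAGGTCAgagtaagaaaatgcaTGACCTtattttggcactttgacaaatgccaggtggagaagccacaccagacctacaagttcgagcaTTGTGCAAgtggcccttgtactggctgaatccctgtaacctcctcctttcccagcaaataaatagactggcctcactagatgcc
Cyp3a13 (chr5:137919883-137920131, minus strand): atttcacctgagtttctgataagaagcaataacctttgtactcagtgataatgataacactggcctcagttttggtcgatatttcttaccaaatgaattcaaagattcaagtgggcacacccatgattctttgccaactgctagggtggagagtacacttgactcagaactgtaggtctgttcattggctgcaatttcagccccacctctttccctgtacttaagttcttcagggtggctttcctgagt

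In the window of Cyp3a25, AGGTCA stood on the gene's strand at -176 to -171 and on the other strand at -155 to -150, counted from the RefSeq start. Cyp3a11 and Cyp3a59 held the same arrangement, a hexamer followed after 14 or 15 bases by one on the opposite strand. These stretches are printed for comparison.
Cyp3a11 (chr5:145816801-145816826, minus strand): AGGTCAagttgggctgtggaTGAACT
Cyp3a25 (chr5:145946578-145946604, minus strand): AGGTCAgagtaagaaaatgcaTGACCT
Cyp3a59 (chr5:146015891-146015917, plus strand): AGGTCAgagtaaaaaaatgcaTGACCT

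The stretch of Cyp3a11 lies before the RefSeq start but inside the first exon in GENCODE, which starts 203 bases further upstream, and the rest of that window is not printed. The motifs were chosen after these promoters had been read, and the spacing was taken from them. Among 15303 promoters of 250 bases, AGGTCA on either strand occurred in 12.3%, AGTTCA in 9.94%, and the spaced arrangement in 4, all of them Cyp3a genes (0.0261%). The fourth was Cyp3a57, whose count was at most 6 in every library. The promoters of Cyp3a25, Cyp3a57 and Cyp3a59 are close copies, 88.9% to 94.8% identical. That of Cyp3a11 was 51.8% to 53.1% identical to them and 53.5% to that of Cyp3a13. Other arrangements were searched as well. Hexamers repeated on the same strand after 3 or 4 bases occurred in 1 and 2 promoters, and hexamers pointing apart after 6 bases in 2. None of these was the promoter of a Cyp3a gene. TTGCNNAA occurred in 8.31% of promoters and in Cyp3a25 alone among the Cyp3a genes. The Foxa motif TGTTTAC (2.47% of promoters) and the HNF4 motif CAAAGTCCA (0.457%) were found in Cyp3a11 at -198 to -192 and -109 to -101 and in neither other member. Both sites lie past the GENCODE start. The Foxa motif was also in Cyp3a16, Cyp3a41a, Cyp3a41b and Cyp3a44, whose counts are given below. The HNF4 motif was also in Cyp3a16, Cyp3a41a and Cyp3a41b. The window of Cyp3a13 held none of these letters, which says nothing about what binds there or elsewhere.

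Cyp3a11 was the member with the widest range. Its level was 0.708 and 0.542 FPKM in the DMSO libraries, from 132 and 86 counts, and 173 and 191 FPKM in the 5C libraries, from 29501 and 29897 counts. The 5C-E libraries had 98.8 and 79.9 FPKM, the 5C-C libraries 85.7 and 70.9, the 5C-G libraries 42.4 and 41.5, the 5C-F libraries 42.2 and 21.3, and the 5C-S library 192. Every library that received compounds lay far above both DMSO libraries, and every library that lacked G, C, E or F lay below both 5C libraries. Group means were 0.625 ± 0.118 FPKM (SD, n = 2) in DMSO, 182 ± 13.1 in 5C, 89.4 ± 13.3 in 5C-E, 78.3 ± 10.5 in 5C-C, 41.9 ± 0.596 in 5C-G and 31.8 ± 14.8 in 5C-F. In the order of these means, 5C-E and 5C-C overlapped, as did 5C-G and 5C-F. The 5C-F libraries differed 1.98-fold from each other, the widest gap within a group for this gene.

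Cyp3a25, which metabolises the same kinds of substrate, followed a similar order at a lower level. It had 0.0525 and 0.139 FPKM in the DMSO libraries, which rests on 4 and 9 counts, and 11.5 and 8.56 FPKM in the 5C libraries. The values were 8.83 and 4.95 in 5C-E, 5.32 and 3.35 in 5C-C, 2.60 and 1.37 in 5C-G, 2.98 and 0.617 in 5C-F, and 12 in the 5C-S library. Both 5C-G and both 5C-F libraries lay below all libraries of 5C, 5C-C and 5C-E, while 5C-E A overlapped with 5C. The spread within groups was wider than for Cyp3a11, with a ratio of 4.82 between the 5C-F libraries and 2.64 between the DMSO libraries.

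Cyp3a13, which is expressed outside the liver as well, did not share this pattern. Its level was 13 and 12.9 FPKM in the DMSO libraries, 23.1 and 20.1 in 5C, 32.4 and 22.4 in 5C-F, 14.2 and 9.70 in 5C-C, 12.6 and 9.74 in 5C-E, 9.50 and 7.92 in 5C-G, and 16.1 in the 5C-S library. The highest group was thus 5C-F and the lowest 5C-G, with 5C-F overlapping 5C, and DMSO, 5C-C and 5C-E overlapping in turn. From the lowest to the highest group mean, Cyp3a13 ran from 8.71 ± 1.12 to 27.4 ± 7.10 FPKM (SD, n = 2).

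**Figure D1:**
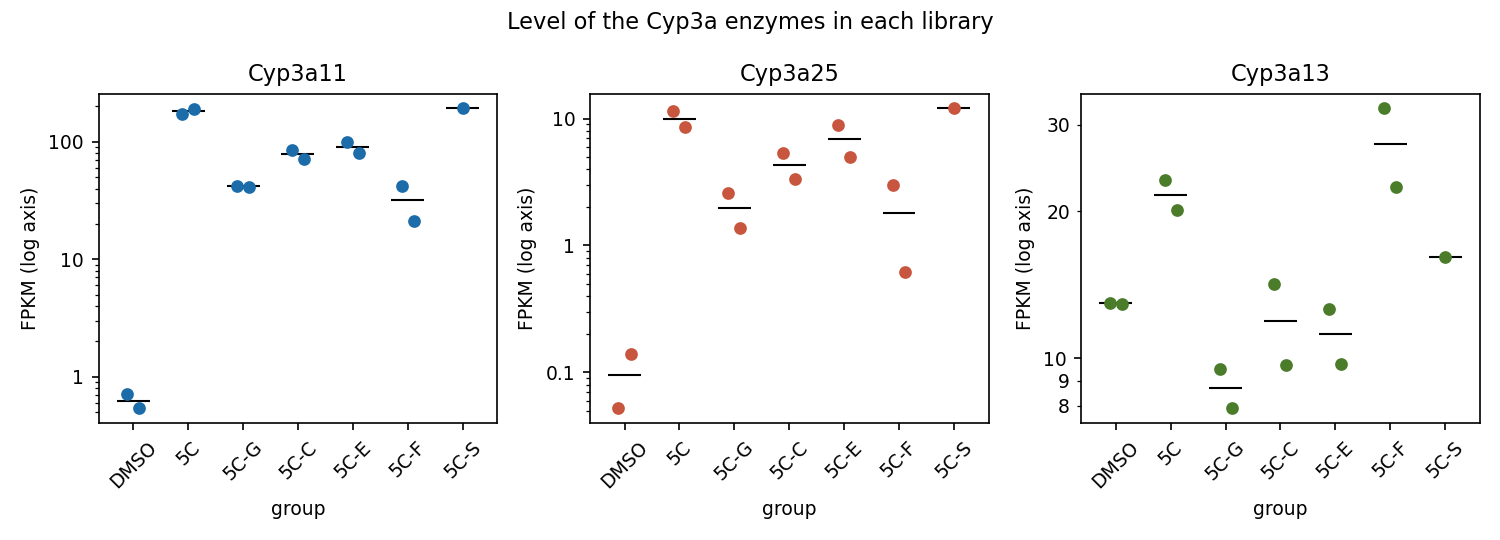
FPKM (log axis, a separate range in each panel) of Cyp3a11, Cyp3a25 and Cyp3a13 in each of the 13 libraries; points are libraries and lines are group means. Cyp3a11 and Cyp3a25 are lowest in DMSO (means 0.625 and 0.0955 FPKM) and highest in 5C and 5C-S, whereas Cyp3a13 is highest in 5C-F (27.4 FPKM).

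The first comparison asked what the cocktail changes relative to its solvent. In the edgeR fit over all libraries, Cyp3a11 was 275-fold higher in 5C than in DMSO (log2 fold change 8.10 ± 0.35 SE, 95% interval 7.37 to 8.84). Cyp3a25 was 100-fold higher (6.65 ± 0.72, interval 5.13 to 8.17) and Cyp3a13 was 1.58-fold higher (0.66 ± 0.22, interval 0.19 to 1.13). With a call defined as an adjusted p under 0.05 and a log2 fold change beyond 1, 2 of 3 members were called, both higher, where 4.55% of all 19884 genes tested were called in either direction. The intervals of Cyp3a11 and Cyp3a25 lay wholly above that of Cyp3a13. Over the alternatives the log2 fold change ran from 3.32 (limma on log2(FPKM + 1)) to 7.45 (without DMSO library B) for Cyp3a25 and from 6.81 (the same limma fit) to 8.33 (without DMSO library A) for Cyp3a11, each called throughout.

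The next comparisons asked how much of this level depended on each compound. They share the 5C libraries. Removal of GSK429286A was accompanied by lower levels of all members. Cyp3a11 was 3.95-fold lower in 5C-G than in 5C (-1.98 ± 0.26, interval -2.53 to -1.43), Cyp3a25 4.68-fold lower (-2.23 ± 0.53, interval -3.34 to -1.11) and Cyp3a13 2.27-fold lower (-1.18 ± 0.23, interval -1.66 to -0.71). Here 3 of 3 members were called, against 13.1% of all genes. Without 5C-G library B, Cyp3a25 was no longer called (-1.90), and Cyp3a13 was not called (-0.82) once an offset for GC content and transcript length entered the fit, an alternative added after the data had been seen.

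In 5C-C, which lacked the protein kinase D inhibitor CID755673, Cyp3a11 was 2.08-fold lower than in 5C (-1.05 ± 0.25, interval -1.59 to -0.52). The difference was -1.05 ± 0.50 for Cyp3a25 (interval -2.11 to 0.01) and -0.70 ± 0.22 for Cyp3a13 (interval -1.17 to -0.23, with -0.19 under the GC and length offset and -0.47 without 5C-C library B). Only Cyp3a11 was called, 1 of 3 members against 20.2% of all genes. That call lay at the fold threshold and was lost without 5C library B (-0.94), without 5C-C library B (-0.95) and with the GC and length offset (-0.55), while Cyp3a25 was called without 5C-F library A or B (-1.05 each).

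In 5C-E, which lacked ETC-1002, Cyp3a11 was 2.14-fold lower than in 5C (-1.10 ± 0.25, interval -1.63 to -0.56) and Cyp3a13 2.03-fold lower (-1.02 ± 0.22, interval -1.49 to -0.55). Cyp3a25 differed by -0.61 ± 0.50, with an interval of -1.66 to 0.44 that holds both 0 and values beyond -1, and by -1.05 without 5C-E library A, -0.25 without library B, -0.40 without 5C library A and -0.29 with the GC and length offset. Of the members, 2 of 3 were called, against 1.96% of all genes. The calls of Cyp3a11 and Cyp3a13 were lost with the GC and length offset (-0.80 and -0.79) and with both limma fits. For Cyp3a13 the call was also lost on total counts (-0.95) and with no filter (-0.99). The call of Cyp3a11 was lost without either 5C library (-1.18 and -0.97 without A and B) or either 5C-E library (-1.23 and -0.95). That of Cyp3a13 was lost without DMSO library A (-0.99), 5C library A (-0.94) or B (-1.07), 5C-C library A (-0.99), the 5C-S library (-1) or 5C-E library B (-0.84).

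In 5C-F, which lacked forskolin, the members parted. Cyp3a11 was 5.29-fold lower than in 5C (-2.40 ± 0.26, interval -2.96 to -1.85, with -3.04 without 5C-F library A and -1.97 without library B) and Cyp3a25 5.12-fold lower (-2.36 ± 0.53, interval -3.47 to -1.24), whereas Cyp3a13 was 1.37-fold higher (0.45 ± 0.22, interval -0.02 to 0.92, with 0.11 without 5C-F library A and 0.73 without library B). Called were 2 of 3 members, both lower, against 4.84% of all genes. The call of Cyp3a25 was lost without 5C library A (-2.15) or B (-2.53) or 5C-F library B (-1.61).

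The 5C-S library, which lacked Salidroside, has no replicate and was not tested. Its log2 difference from the 5C group was 0.06 for Cyp3a11, 0.25 for Cyp3a25 and -0.44 for Cyp3a13. None of the 3 members lay beyond 1 on the log2 scale, where 18.9% of all genes did.

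Against DMSO, all removal groups kept a high level of Cyp3a11 and Cyp3a25. The log2 fold change of Cyp3a11 was 5.70 ± 0.32 in 5C-F, 6.12 ± 0.32 in 5C-G, 7.01 ± 0.34 in 5C-E and 7.05 ± 0.34 in 5C-C. That of Cyp3a25 was 4.29 ± 0.71, 4.42 ± 0.71, 6.04 ± 0.71 and 5.60 ± 0.71 in the same order. For Cyp3a25, limma on log2(FPKM + 1) gave 1.21, 1.41, 2.81 and 2.26, with no call in 5C-F and 5C-G. For Cyp3a13 the difference was 1.11 ± 0.22 in 5C-F, -0.52 ± 0.22 in 5C-G, -0.36 ± 0.22 in 5C-E and -0.04 ± 0.22 in 5C-C. These comparisons share the DMSO libraries. Called were 3 of 3 members in 5C-F (7.40% of all genes), 2 of 3 in 5C-G (5.83%), 2 of 3 in 5C-E (6.09%) and 2 of 3 in 5C-C (22.1%), all higher than DMSO. The call of Cyp3a13 in 5C-F was lost without 5C-F library A (0.77) and that of Cyp3a25 in 5C-G without DMSO library A (3.82).

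**Figure D2:**
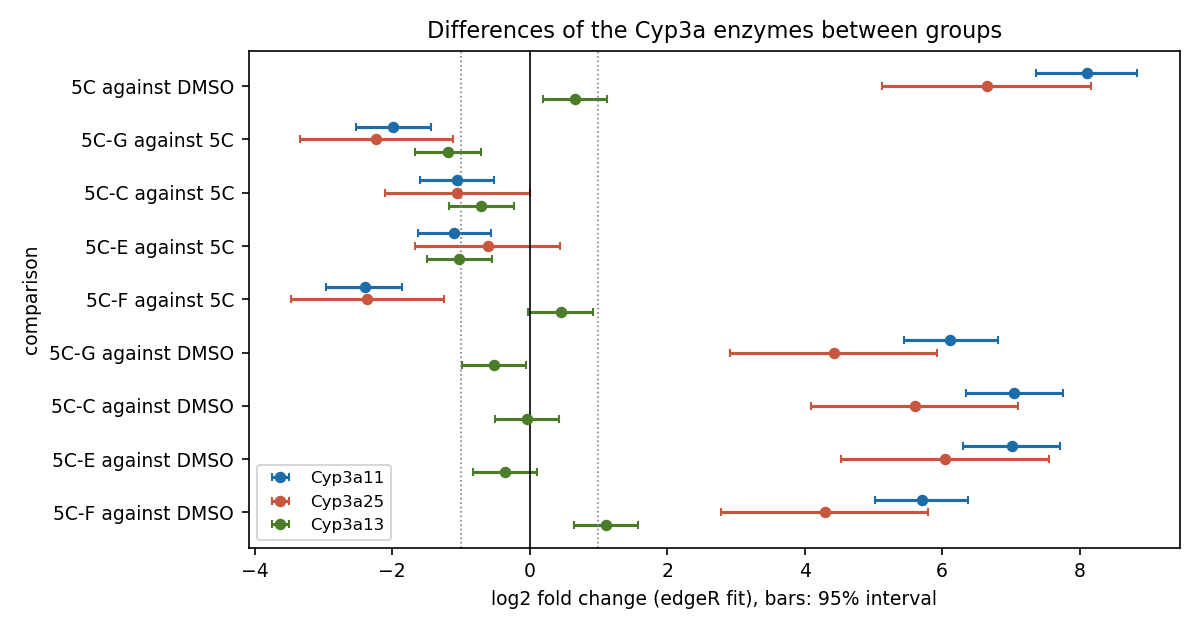
Log2 fold change (x axis) of the members in each of 9 comparisons (y axis), with 95% intervals from the edgeR fit; dotted lines mark 1 and -1. Against DMSO, Cyp3a11 and Cyp3a25 lie far above Cyp3a13 (8.10, 6.65 and 0.66 in 5C). In 5C-E against 5C, Cyp3a11 (-1.10) lies next to Cyp3a13 (-1.02), and in 5C-F against 5C the Cyp3a11 and Cyp3a25 values of -2.40 and -2.36 lie opposite to the 0.45 of Cyp3a13.

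The make-up of the summed FPKM of these enzymes differed between groups. Cyp3a13 made up 94.5% and 95% of the sum in the DMSO libraries, and Cyp3a11 5.15% and 3.98%. In the 5C libraries Cyp3a11 made up 83.3% and 86.9%, Cyp3a13 11.1% and 9.15%, and Cyp3a25 5.54% and 3.90%. The libraries of 5C-G, 5C-C and 5C-E had Cyp3a11 shares between 77.8% and 84.5%, and a lower sum than 5C. Cyp3a13 made up 17.4% and 15.6% in the 5C-G libraries, above both 5C libraries, and the ratio of Cyp3a11 to Cyp3a13 was 4.46 and 5.25 there against 7.48 and 9.5 in 5C, and that of Cyp3a25 to Cyp3a13 was 0.273 and 0.173 against 0.497 and 0.426. In 5C-C the Cyp3a13 share was 13.5% and 11.6%, and in 5C-E 10.5% and 10.3%, the latter within the range of 5C. The 5C-F libraries stood between DMSO and 5C, with 54.4% and 48.1% for Cyp3a11 and 41.8% and 50.5% for Cyp3a13. The length behind the deposited FPKM of Cyp3a11 was 5101 bases, 2.09 times that of its canonical transcript. With canonical lengths the share of Cyp3a11 was 91.2% and 93.2% in the 5C libraries, 71.3% and 66.0% in 5C-F, and 10.2% and 7.96% in DMSO, and the order of the groups was the same.

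**Figure D3:**
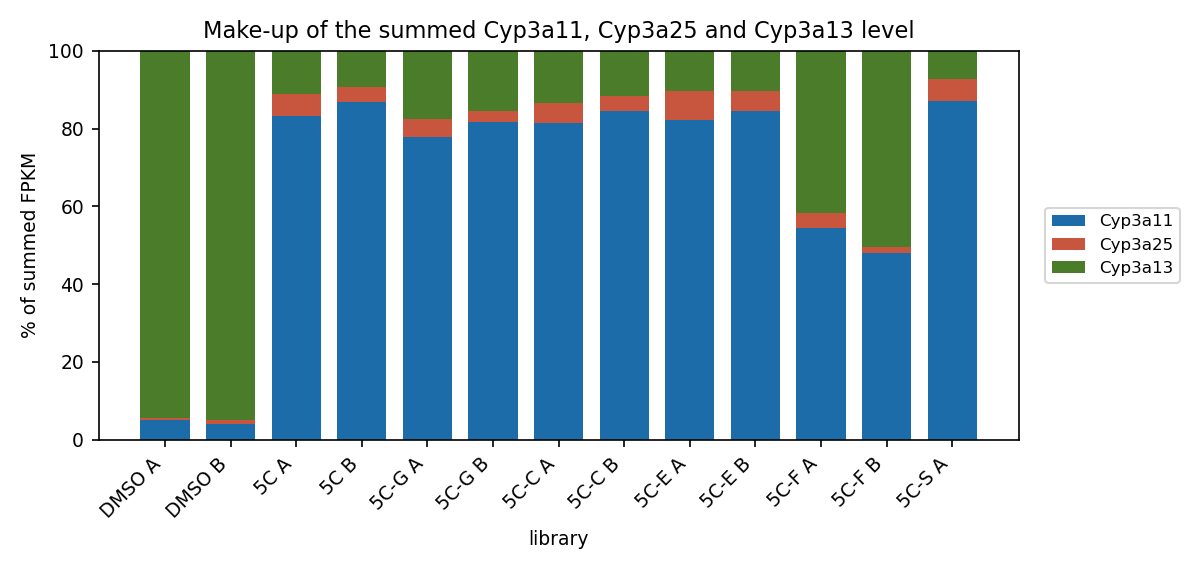
Share (%) of Cyp3a11, Cyp3a25 and Cyp3a13 in their summed FPKM (y axis) in each library (x axis). Cyp3a13 fills 94.5% and 95% of the DMSO bars, Cyp3a11 83.3% and 86.9% of the 5C bars, and the 5C-F bars lie between.

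Of the other 7 Cyp3a genes, 2 passed the filter on low counts. Cyp3a59, the close copy of Cyp3a25, had 2 and 0 counts in the DMSO libraries and 94 and 67 in 5C, and was called higher (edgeR adjusted p = 0.00195). Both DMSO libraries lie at or under the floor of 3 counts a library, so that Cyp3a59 was at least 28-fold higher in 5C. It had 37 and 123 counts in 5C-C, 94 and 73 in 5C-E, 44 and 30 in 5C-G, 54 and 5 in 5C-F, and 120 in 5C-S. None of its differences from 5C passed the test. Cyp3a16, a form known mainly from fetal liver, had 39 and 16 counts in DMSO, 15 and 24 in 5C, 0 and 0 in 5C-C, 11 and 0 in 5C-E, 5 and 4 in 5C-G, 52 and 5 in 5C-F, and 26 in 5C-S. It was called lower in 5C-C than in 5C (edgeR adjusted p = 0.0182). Cyp3a41a, Cyp3a41b, Cyp3a44, Cyp3a57 and the pseudogene Cyp3a63-ps had at most 9 counts in every library.

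The genes around this pathway were taken from 44 genes in lists by role, adjusted over all genes tested. Among the 6 nuclear receptors, none was called between 5C and DMSO by edgeR or DESeq2, and 2 had an unadjusted p under 0.05 in edgeR. Of all genes, edgeR called 4.55% there. Nr1i2 (PXR), the xenobiotic sensor, had 4.53 and 4.79 FPKM in DMSO and 8.04 and 6.85 in 5C (log2 fold change 0.60 ± 0.24, edgeR adjusted p = 0.18). It fell in 5C-G to 3.30 and 2.19 FPKM (-1.32 ± 0.24 against 5C, edgeR adjusted p = 0.000955), below both DMSO libraries. In 5C-C it had 11 and 8.85 FPKM, in 5C-E 6.66 and 8.66, in 5C-F 8.76 and 12.9 and in 5C-S 8.06. Its difference from 5C was not called in 5C-F (0.64 ± 0.24, edgeR adjusted p = 0.0918), 5C-C (0.58 ± 0.24, 0.0656) or 5C-E (-0.03 ± 0.24, 0.988). Nr1i3 (CAR) was listed at 0.196 FPKM or less in every library, with 0 to 29 counts, and was not called in any comparison. With 5C-C library B left out, which leaves the library at 0, it was called lower than 5C (-7.47). Nr3c1, the glucocorticoid receptor, fell in 5C-C (-1.48 ± 0.23, edgeR adjusted p = 0.000171), although not with the GC and length offset (-0.55).

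Of the 11 hepatocyte factors and cofactors, 0 rose and 1 fell in 5C against DMSO, where 4.55% of all genes were called. It was Cebpa (-1.04 ± 0.19, edgeR adjusted p = 0.0016, not called on total counts alone, -0.97, or with the GC and length offset, -0.92). In 5C-G against 5C, 5 fell and 1 rose, where 13.1% of all genes were called. Onecut1 (HNF6) was among those that fell, with 55 and 58 counts in 5C and 2 and 4 in 5C-G. The coactivator Ppargc1a fell by 2.46 on the log2 scale and the pioneer factor Foxa1 by 1.94. In 5C-C against 5C, 2 rose and 2 fell, where 20.2% of all genes were called. Nr0b2 (SHP), a repressor of nuclear receptors, rose by 2.98 and Cebpb by 1.48, while Ppargc1a fell by 2.06 and the coactivator Ncoa1 by 1.01. With the GC and length offset Ppargc1a (-1.09), Cebpb (0.44) and Ncoa1 (-0.44) were not called, and Ncoa1 was also lost with DESeq2 (-0.98) and without DMSO library A (-0.99), 5C library B (-0.94), 5C-C library B (-0.63), the 5C-S library (-0.99) or 5C-E library A (-0.99). In 5C-F against 5C, Foxa3 rose by 1.17 as the only one of the 11, where 4.84% of all genes were called, a call lost with the offset (0.99) and without either 5C library (1.30 and 1.05) or 5C-F library A (0.81). None was called in 5C-E by edgeR.

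The 5 electron donors and partners were called in none of these 5 comparisons by edgeR or DESeq2, with 2 or 3 at an unadjusted p under 0.05 in each. Of all genes, edgeR called between 1.96% (5C-E) and 20.2% (5C-C) in these comparisons, so that 0 of 5 says little. Cytochrome b5 (Cyb5a) passed the edgeR adjusted p in 5C against DMSO below the fold threshold (0.70, adjusted p = 0.0152), as did its reductase Cyb5r3 in 5C-G (0.61, 0.0178) and 5C-C (0.51, 0.0346) against 5C. Por, the obligate reductase, had 41.0 and 41.2 FPKM in DMSO and 57.4 and 46.9 in 5C (0.27 ± 0.17, edgeR adjusted p = 0.483). Its highest levels were 79.2 and 81.7 FPKM in 5C-C and 76.4 and 83.5 in 5C-F, 0.79 ± 0.17 and 0.72 ± 0.17 above 5C on the log2 scale (edgeR adjusted p = 0.00204 and 0.0169, both under the fold threshold). Por had 47.7 and 50.1 FPKM in 5C-G, where its difference from 5C was 0.05 ± 0.17, and 60.9 and 79.2 in 5C-E. None of the groups with less Cyp3a11 than 5C was thus called lower in its reductase.

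Of 10 genes of heme synthesis and breakdown, none was called between 5C and DMSO by edgeR or DESeq2 (3 at an unadjusted p under 0.05). Of all genes, edgeR called 4.55% there. Hmox1, which degrades heme, and the biliverdin reductase Blvrb passed the edgeR adjusted p but not the fold threshold (-0.87 ± 0.17, adjusted p = 0.00248, and -0.86 ± 0.24, adjusted p = 0.0371). Alas1, the rate-limiting enzyme of heme synthesis, had 16.1 and 17.7 FPKM in DMSO and 27.1 and 24.4 in 5C (0.53 ± 0.17, edgeR adjusted p = 0.0871), and it was highest in 5C-F with 39.9 and 37.2 FPKM (0.68 ± 0.17 against 5C, adjusted p = 0.0208, under the fold threshold). In 5C-G Hmox1 rose by 1.46 and Blvrb by 1.69, 2 of 10 where 13.1% of all genes were called. In 5C-C, Blvrb rose by 1.44, Urod by 1.07 and Alad by 1.06, 3 of 10 where 20.2% of all genes were called. Of these, Blvrb was not called with the offset (0.62), and Urod and Alad were not called on total counts alone (0.90 and 0.89), Alad also not without 5C-C library B (0.78).

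Other genes known as targets of PXR and CAR moved with Cyp3a11 in part. The study itself had named Cyp2c29, Ugt1a1 and Cyp2b10, the last from liver tissue, so that their direction is not independent evidence. In 5C against DMSO, 7 of 12 rose and 0 fell, with a median log2 fold change of 1.37 where that of all genes was 0.01 and 4.55% of all genes were called. Cyp2c29 rose by 6.81, Cyp2c55 by 4.66, the transporter Slco1a4 by 4.39 and Cyp2b10 by 3.08. In 5C-G, 8 of 12 fell (median -1.56, 13.1% of all genes called), among them Cyp2c29 by 5.03, Cyp2b10 by 4.39, the bilirubin-conjugating enzyme Ugt1a1 by 2.49 and Cyp2c55 by 2.29. In 5C-C, 5 fell (median -0.92, 20.2% of all genes called), with Ugt1a1 at -3.09, Cyp2c29 at -2.35, Cyp2b10 at -1.51 and the export pump Abcc2 at -1.46, the last not called with the offset (-0.59). In 5C-E, 3 fell (median -0.61, 1.96% of all genes called), namely Cyp2c29 by 2.11, Cyp2b10 by 1.74 and Ugt1a1 by 1.38, and the last was lost without either 5C library (-1.39 and -1.35) or 5C-E library B (-1.21).

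Removal of forskolin split these targets. Slco1a4 fell by 2.13 against 5C and Ugt1a1 by 1.04, as Cyp3a11 and Cyp3a25 were lower, but Cyp2b10 rose by 1.11 and Cyp2c29 by 1.10. Cyp2c29 had 170 and 165 FPKM in 5C and 395 and 270 in 5C-F, and Cyp2b10 88.3 and 78.0 in 5C and 194 and 139 in 5C-F. Both 5C-F libraries lay above both 5C libraries for each of these genes, and below them for Slco1a4 (3.35 and 2.52 in 5C, 0.660 and 0.586 in 5C-F). Without 5C-F library A, Cyp2b10 (0.79), Cyp2c29 (0.75) and Ugt1a1 (-1.14) were not called. Without 5C library B the same held for Cyp2b10 (1.05), Cyp2c29 (1.10) and Ugt1a1 (-1.03). Cyp2c29 was also lost without 5C library A (1.10) and on total counts alone (0.99), and Ugt1a1 with the offset (-0.87) and without 5C library A (-1.05), 5C-F library B (-0.95) or either DMSO library (-1.04 each). Counts of Cyp2b, Cyp2c and Ugt1a genes may be shared with close copies.

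**Figure D4:**
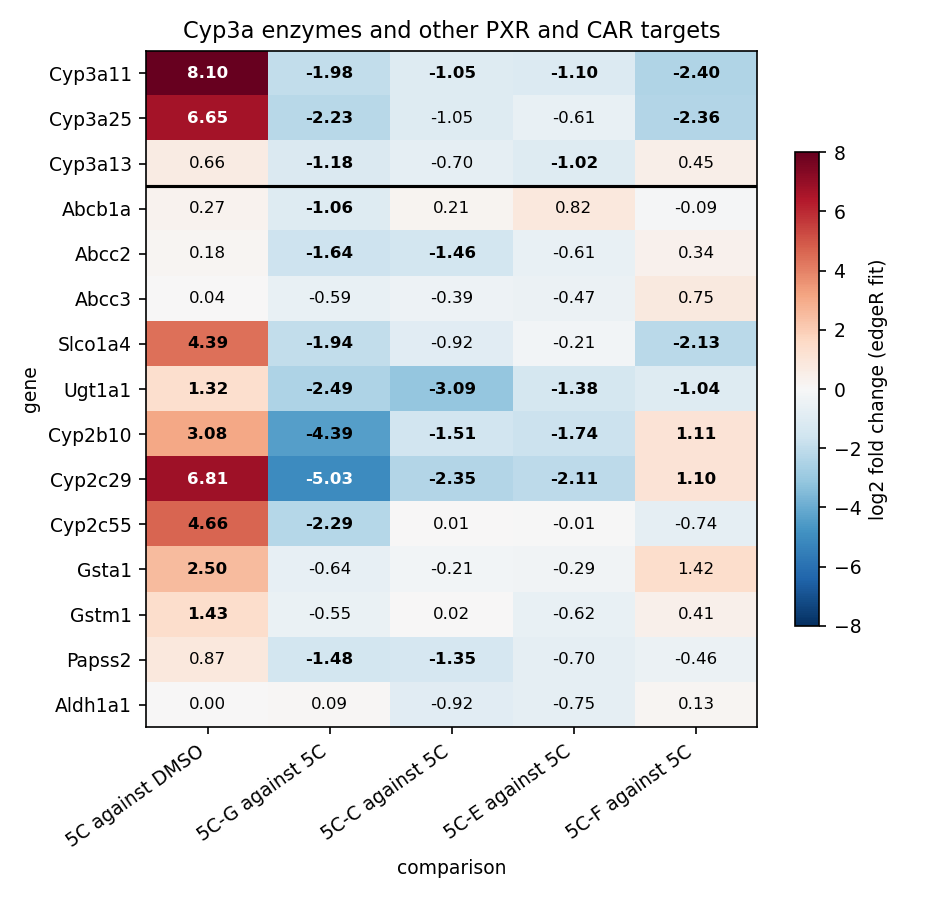
Log2 fold change (colour and number) of the members (above the line) and 12 other PXR and CAR targets (below it) in 5 comparisons; bold marks values with an adjusted p under 0.05 and a log2 fold change beyond 1. In 5C-F against 5C, Cyp3a11, Cyp3a25 and Slco1a4 are lower (-2.40, -2.36 and -2.13) and Cyp2b10 and Cyp2c29 are higher (1.11 and 1.10).

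The 5 genes whose profile over the 13 libraries lay nearest to each member were found by the root mean square (RMS) difference of log2 CPM, each gene centred on its mean. For Cyp3a11 these were Gstm3 (0.87), Cyp3a59 (1.13), Ces2a (1.16), Sparcl1 (1.20) and Cyp2c55 (1.32), where the median over all genes was 2.69. Cyp3a25 lay at 0.80 from Cyp3a11, nearer than any of them. For Cyp3a25 the nearest genes were Cyp3a59 (0.74), Gstm3 (0.76), Ces2a (0.85), Sparcl1 (0.87) and Slco1a4 (0.87), with a median over all genes of 2.24. The split of reads between Cyp3a25 and Cyp3a59 is uncertain, so their nearness may in part come from shared reads, which was not tested. Gstm3, a glutathione transferase, had a mean of 2.08 ± 0.974 FPKM in DMSO, 155 ± 0.413 in 5C, 46.0 ± 0.790 in 5C-G and 15.9 ± 3.06 in 5C-F (SD, n = 2).

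For Cyp3a13 the nearest genes were Glyat (0.17), Abcb4 (0.18), Tspan12 (0.20), Sult1b1 (0.21) and Gpt2 (0.21), with a median over all genes of 0.81. Abcb4 is the canalicular phospholipid transporter, and Glyat and Sult1b1 are conjugating enzymes. Cyp3a11 and Cyp3a25 lay at 2.64 and 2.19 from Cyp3a13. The measure is smaller for genes that vary little, so that its values compare within a member only.

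**Figure D5:**
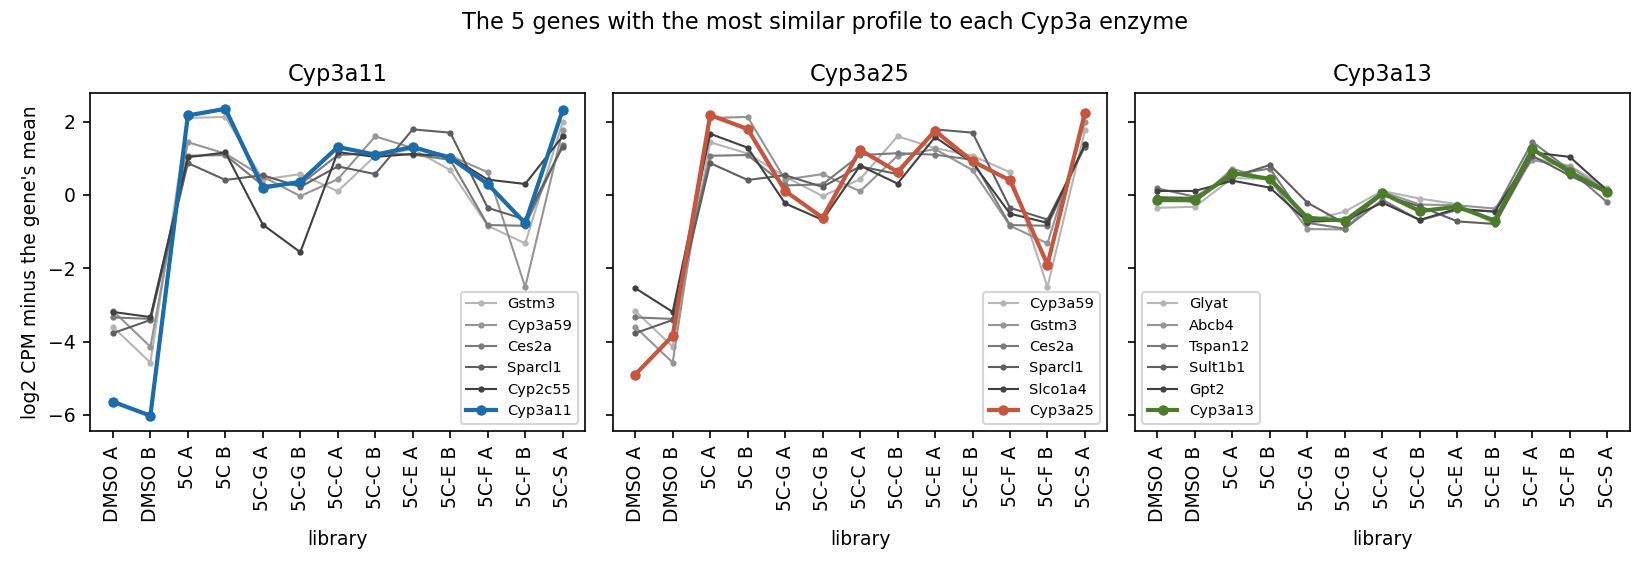
Centred log2 CPM (y axis) of each member (coloured) and its 5 nearest genes (grey) in every library (x axis). Cyp3a11 and Cyp3a25 drop in DMSO and in 5C-F library B, and Cyp3a13 is low in 5C-G and in 5C-E library B and highest in 5C-F library A.

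The nearest genes of the tables on each side of the members that are no Cyp3a genes numbered 12, of which 7 were tested. Those of Cyp3a11 and Cyp3a25 lay 148180 to 684463 bases away, with other Cyp3a genes between. None of the 7 was called between 5C and DMSO by edgeR or DESeq2, with 1 at an unadjusted p under 0.05, where 4.55% of all genes were called. The count was also 0 in 5C-C and 5C-F against 5C by both tools, with 1 and 2 at an unadjusted p under 0.05. Of all genes, edgeR called 20.2% and 4.84% there. In 5C-G against 5C, 1 of 7 was called, where 13.1% of all genes were, namely Zscan25 (1.20 ± 0.37, edgeR adjusted p = 0.0258). In 5C-E against 5C, where 1.96% of all genes were called, Azgp1, a neighbour of Cyp3a13, fell (-1.58 ± 0.19, edgeR adjusted p = 0.000108). DESeq2 called 2 neighbours in 5C-E, where Zscan25 stood at 1.21 ± 0.37 in edgeR without a call (adjusted p = 0.102). Gm15502 and Gm36551 overlap Cyp3a13, the first on its strand and the second on the opposite one, and had at most 15 and 13 counts in a library, against at least 855 for Cyp3a13.

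Markers of other cells moved with the comparisons. All 9 macrophage markers were detected, and their summed level was 2511 to 2521 FPKM in DMSO, 274 to 301 in 5C, 3082 to 4835 in 5C-G, 712 to 1222 in 5C-C, 429 to 554 in 5C-E, 897 to 1200 in 5C-F and 366 in 5C-S. Of these markers, 8 fell in 5C against DMSO, and 8 rose in 5C-G, 6 in 5C-C and 8 in 5C-F against 5C, where 4.55%, 13.1%, 20.2% and 4.84% of all genes were called in turn. In 5C-E against 5C, 0 of the 9 were called, where 1.96% of all genes were. Clec4f, which defines Kupffer cells, was under 0.1 FPKM in 5C, 5C-E and 5C-S. Of the 8 hepatocyte markers, 2 fell in 5C against DMSO, and against 5C 2 rose and 2 fell in 5C-G, 3 fell in 5C-C, 4 fell in 5C-E (1.96% of all genes called) and 2 rose in 5C-F. Summed levels of the 8 stellate cell and fibroblast markers ran from 744 FPKM in 5C-F to 1719 in 5C-E. Their members went both ways, with Des at -1.13 in 5C against DMSO and 2.64 in 5C-G against 5C, Lrat at 3.19 and -1.89, and Reln at -1.69 in 5C-G and -4.60 in 5C-C against 5C, all called. Summed levels ran for the 6 endothelial markers from 9.34 FPKM in 5C-C to 89.3 in DMSO and for the 5 cholangiocyte markers from 1456 in 5C-S to 3422 in 5C-F. The endothelial sum was mostly Lyve1 in DMSO (mean 71.6 FPKM, 2.95 in 5C), while Kdr had 11.5 in DMSO, 9.74 in 5C and 22.1 in 5C-E, Ptprb was under 0.1 FPKM in every group, and Pecam1 and Cdh5 had at most 0.0584 and 0.138 as group means. The cholangiocyte sum was mostly Spp1 (2667 in DMSO, 1680 in 5C), while Epcam had 1.51 in DMSO and 15.1 in 5C, and Krt19 was highest in 5C-C (213). The part of these cells in the Cyp3a differences was not tested.

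Set against albumin in the same library, the order of the groups changed. Cyp3a11 stood at 0.0729 and 0.0630 per 1000 units of Alb FPKM in DMSO, 18.3 and 20.3 in 5C, 10.2 and 9.26 in 5C-G, 25 and 27.8 in 5C-C, 36.3 and 37.7 in 5C-E, 2.31 and 1.60 in 5C-F and 37.3 in 5C-S. On this scale 5C-C and 5C-E lay above 5C, where Alb itself was lower (9437 and 9425 FPKM in 5C, 3433 and 2553 in 5C-C, 2719 and 2122 in 5C-E), while 5C-G, 5C-F and DMSO lay below 5C as they did in FPKM. Cyp3a25 stood at 1.22 and 0.909 per 1000 in 5C, 0.628 and 0.305 in 5C-G, and 0.163 and 0.0462 in 5C-F, and at 1.55 and 1.31 in 5C-C, 3.25 and 2.33 in 5C-E and 2.34 in 5C-S, the last 3 groups above both 5C libraries. Cyp3a13 stood at 2.45 and 2.13 in 5C, 1.34 and 1.5 in DMSO, 2.30 and 1.77 in 5C-G, 4.12 and 3.8 in 5C-C, 4.65 and 4.59 in 5C-E, 3.13 in 5C-S, and 1.78 and 1.68 in 5C-F, so that relative to Alb both 5C-F libraries lay below both 5C libraries and above both DMSO libraries.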

How the data were processed

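Gene expression was measured by RNA sequencing of 13 libraries. The authors sequenced paired-end reads of 150 bases, and their processing notes name GRCm39, Subread, featureCounts and DESeq2, of which the study's methods give a version for DESeq2. They deposited whole-number counts per gene, not normalized, and FPKM values per gene. The handling of strand and of reads that match several genes was not given in the sources used here, and the gene length behind each FPKM was read from the ratio of both tables. The members and all lists were chosen with earlier results of these data known.

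Groups came from the sample labels. All libraries entered 1 edgeR 4.0.16 quasi-likelihood fit in R 4.3.3 (TMM factors, filterByExpr with a minimum count of 10, group means, 6 residual degrees of freedom, common biological coefficient of variation 0.261), where the study used DESeq2. Log2 fold changes carry SE and 95% intervals. A call is a Benjamini-Hochberg adjusted p under 0.05 over 19884 genes and a log2 fold change beyond 1. The fit was tested on simulated data. The 5C-S library entered the fit but no test. No pair of libraries of 1 group agreed within counting noise (chi-square per degree of freedom between 8.32 and 93.8). Total counts ran from 30195867 to 45491932. A floor of 3 counts a library was used for the ratio given for Cyp3a59. It covers counting error only, since no molecular identifiers are named in the sources used here.

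Named genes were the members, every other Cyp3a gene, up to 4 called genes with the largest change for each role list and comparison (with Nr1i2, Nr1i3, Por and Alas1 always), and the 5 nearest profiles of each member (log2 CPM, prior count 2). Of the genes this rule names, 1 is not reported here. Azgp1, Zscan25, Gm15502, Gm36551, Cyb5a, Cyb5r3, Hmox1 and Blvrb in 5C against DMSO, and the single marker genes were named after their values were seen. Alternatives were total counts only, DESeq2 1.42.0, limma 3.58.1 on log2(FPKM + 1) and log2(FPKM + 0.1), no filter, at least 10 counts in every library, only the libraries of both groups, leaving out each library, the column number as a replicate block (chosen after the data were seen), and an offset for GC content and transcript length, chosen after fold changes were seen to trend with GC (Spearman's rho over 19787 genes -0.18 in 5C against DMSO, and 0.26 to 0.41 in the removal groups against 5C, highest in 5C-C). Sequences came from RefSeq promoters (GRCm38.p6) and positions from GENCODE M39.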

Additional observations from a re-analysis of the deposited data

How the results depend on the processing

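The labels carry no replicate number that groups share, but the deposited columns of each group are numbered 1 and 2. Over genes, the differences between number 1 and 2 correlated by -0.03 to 0.10 between groups, above 0.1 in 1 of 15 pairs of groups. The numbers were therefore not taken to pair the libraries, although 12 of 12 libraries correlated best with 1 of their own number. Both libraries of a group mirror each other in that check, so these are not 12 separate results. It is a hint from the data and not from the design. A fit with the number as a replicate block, added after the data were seen, called Cyp3a25 in 5C-C against 5C (-1.08), gave the same call for the other 95 of 96 values examined, and moved no count of genes called by over 1.5 times. Of 585 alternative values for the members, 546 kept the direction and the call, and of all 1803 alternative values 1674 did. Whether a call near the fold threshold stands depends on the choices below, the cause of which was not tested, and groups of 2 libraries and single-digit counts of Cyp3a25 in DMSO limit the precision.

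With the GC and length offset, Cyp3a13 lost its call in 5C-G against 5C (-0.82) and in 5C-E (-0.79), as did Cyp3a11 in 5C-C (-0.55) and 5C-E (-0.80). Cyp3a13 in 5C-C against DMSO, which was not called, turned to 0.34, and to 0.02 with at least 10 counts in every library. Genes called then numbered 2103 in 5C-C against 5C, 728 in 5C-G and 2870 in 5C-C against DMSO, and pathway genes in 5C-F 3. In 5C-E against 5C, Cyp3a11 was not called by limma (-1.02 with 1 and -1.03 with 0.1 added), nor was Cyp3a13 by limma (-0.90 and -0.95), on total counts (-0.95) or with no filter (-0.99). Cyp3a25 in 5C-C against 5C was called with no filter and with only the libraries of both groups (-1.04 each), and it was not called against DMSO by limma with 1 added in 5C-G (1.41) and 5C-F (1.21).

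Genes called by limma with 1 added numbered 569 in 5C against DMSO, 217 in 5C-E, 341 in 5C-F, 1376 in 5C-G and 2318 in 5C-C against 5C, and 729 in 5C-E, 760 in 5C-F, 372 in 5C-G and 2490 in 5C-C against DMSO. With 0.1 added there were 619 in 5C-F against 5C and 673 in 5C-G against DMSO. With only the libraries of both groups there were 1371 in 5C against DMSO and 642 in 5C-E against 5C.

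Leaving out 1 library at a time, genes called ranged from 1395 to 3945 in 5C-G, 138 to 453 in 5C-E and 294 to 1110 in 5C-F against 5C, and from 217 to 2722 in 5C-G, 801 to 1290 in 5C-E and 784 to 1604 in 5C-F against DMSO. Pathway genes ranged from 12 to 20 in 5C-C and from 2 to 6 in 5C-F. Against 5C, Cyp3a11 ranged from -1.15 to -0.94 in 5C-C and from -1.23 to -0.95 in 5C-E, Cyp3a13 from -1.19 to -0.84 in 5C-E, and Cyp3a25 from -2.65 to -1.90 in 5C-G, -1.37 to -0.78 in 5C-C and -3.96 to -1.61 in 5C-F. Against DMSO, Cyp3a25 ranged from 3.82 to 5.23 in 5C-G and Cyp3a13 from -0.28 to 0.19 in 5C-C and 0.77 to 1.39 in 5C-F. A group left with 1 library was assumed to vary like the others.

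Among genes that were not called, Por in 5C-G against 5C turned to -0.09 on total counts and -0.43 with the offset (-0.12 to 0.18 without single libraries), and Nr1i2 in 5C-E to 0.04 on total counts (-0.23 to 0.18). Nr1i3 ranged from -0.14 to 0.92 in 5C against DMSO and from -0.72 to 0.21 in 5C-F against 5C.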
